A study of Mus musculus with 617 samples.

Results

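Oxidative phosphorylation is the chain of mitochondrial enzyme complexes that passes electrons to oxygen and uses the proton gradient so formed to make ATP. The members were the protein-coding mouse genes whose symbol begins with Ndufa, Ndufb, Ndufc, Ndufs, Ndufv, Uqcr, Cox4, Cox5, Cox6, Cox7, Cox8 or Atp5, with Sdha, Sdhb, Sdhc and Sdhd and the 13 coding genes of mitochondrial DNA. Of the 43628 genes in the tables, this rule took 93 nuclear and 13 mitochondrially encoded genes. By complex, the nuclear members were 38 of complex I, 4 of complex II, 8 of complex III, 18 of complex IV and 17 of complex V, together with 8 genes of the Ndufaf series, which encode assembly factors of complex I and no subunit of the finished enzyme. Classes follow the symbols, so Ndufa4, which is now placed with complex IV, and its relative Ndufa4l2 are counted with complex I.

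The cells were 617 single mouse cells, profiled by SMART-seq2, a full-length single-cell RNA-seq method. Embryonic stem (ES) cells came from 1 female and 1 male line, both of a cross with a C57BL/6J mother and a CAST/EiJ father, each sampled in 4 states. These were 2i with LIF (60 female and 51 male cells), serum with LIF (68 and 52), epiblast stem cells in Activin A and FGF2 (labelled Epi, 79 and 63), and cells taken through embryoid bodies with retinoic acid and the agonist SAG (labelled motor neuron, 39 and 35; the protocol states that interneurons also arise). A separate female Epi culture of 7 passages gave 41 cells. Embryos of the same cross gave 23 inner cell mass (ICM) cells at embryonic day 3.5 and 23 epiblast cells at day 4.5 with no labelled sex. Embryos with C57BL/6J on both sides gave 20 female and 63 male epiblast cells at day 5.5. Every group therefore had a C57BL/6J mother, the parent that transmits mitochondrial DNA.

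Complex I (NADH dehydrogenase) and complex II (succinate dehydrogenase) feed electrons to ubiquinone, complex III passes them to cytochrome c, complex IV (cytochrome c oxidase) reduces oxygen, and complex V is the ATP synthase. Complex II is built from nuclear genes only, whereas complexes I, III, IV and V combine nuclear subunits with subunits made inside the organelle. Several subunits of complex IV exist as alternative isoforms whose use differs between tissues, such as the muscle forms Cox6a2, Cox7a1 and Cox8b and the testis forms Cox6b2 and Cox8c.

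Promoters of these genes are shown because a shared element is a known feature of the family: NRF1, a transcription factor of respiratory chain genes, binds a core that reads GCGCATGCG. RefSeq promoters (250 bases before to 50 after the start, build GRCm38.p6) were matched for 74 of the 93 nuclear members. The NRF1 core, searched on both strands, was found in 10 of the 74 (13.5%) against 457 of 17492 protein-coding genes with a promoter (2.61%). AAGATGGCG, a form of the YY1 element, was in 8 members (10.8%) and 2.14% of all genes. CCGGAAGT, an ETS-family core, was in 5 members (6.76%) and 5.69% of all genes. The CCAAT box, also searched, was in 33 members (44.6%) and 42.3% of all genes. These are matches of letters, not measured sites. The promoters of Ndufa8, Cox6a1 and Ndufaf4 follow, as the 250 bases before the start on the gene's strand, with the core in capitals. Ndufa8 (chr2:36049339-36049588, minus strand) and Cox6a1 (chr5:115348959-115349208, minus strand) were 2 of the members that rose in motor neuron cultures, and Ndufaf4 (chr4:24897833-24898082, plus strand) was high in neuron-marker cells, as described further on. They were chosen for these values. Of 13 members called higher in motor neuron cultures and with a matched promoter, 2 held the core, beside 10 of all 74.
Ndufa8: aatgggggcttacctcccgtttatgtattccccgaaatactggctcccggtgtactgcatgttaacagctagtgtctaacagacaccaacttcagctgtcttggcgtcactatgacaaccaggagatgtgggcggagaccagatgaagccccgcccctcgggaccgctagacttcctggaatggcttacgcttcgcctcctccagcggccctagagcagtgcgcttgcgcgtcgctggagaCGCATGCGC
Cox6a1: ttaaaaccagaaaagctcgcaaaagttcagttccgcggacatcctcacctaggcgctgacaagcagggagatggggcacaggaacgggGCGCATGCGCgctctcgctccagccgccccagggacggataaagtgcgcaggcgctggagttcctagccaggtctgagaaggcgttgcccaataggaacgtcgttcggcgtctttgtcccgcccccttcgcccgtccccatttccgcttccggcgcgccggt
Ndufaf4: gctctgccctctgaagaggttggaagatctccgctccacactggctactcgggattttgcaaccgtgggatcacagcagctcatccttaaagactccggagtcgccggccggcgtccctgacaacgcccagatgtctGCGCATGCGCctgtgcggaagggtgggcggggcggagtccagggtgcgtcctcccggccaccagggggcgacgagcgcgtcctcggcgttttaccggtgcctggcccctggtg
The core ended directly at the start of Ndufa8 and lay further upstream in the others. In Cox6a1 and Ndufaf4 it was read on both strands, since the letters are nearly their own reverse complement.

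Values were FPKM (fragments per kilobase of transcript, scaled to sequencing depth), so levels can be compared between genes. Read depth was unknown. Cells had group medians of 8122 (E3.5) to 10839.5 (E5.5 female) genes at a level of 1 FPKM or above. One E3.5 cell stood apart, with an FPKM sum of 7897580 against at most 1143190 in the others of its group, 4662 genes and practically no mitochondrially encoded signal. Another E3.5 cell had 3923 genes, the fewest of its group, with an FPKM sum of 810153. One female motor neuron cell had 4332 genes and 190838 FPKM of mitochondrially encoded members. The ratio and parts of the stage comparison are also given without the E3.5 cell of highest sum. For the female motor neuron cell this was done for mt-Cytb. Other values include these cells unless stated.

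Nuclear members were detected almost universally: 84 of 93 were at 1 FPKM or more in over 90% of all cells, and 83 averaged at least 10 FPKM in each of the 13 groups. The exceptions were mostly tissue isoforms. Of the mitochondrially encoded members, mt-Nd4l, mt-Co2, mt-Co3 and mt-Atp8 were listed at 0 in all 617 cells, and mt-Atp6 in 616. Every respiring cell uses these genes, so the zeros may be failed estimates and are not read as absence. mt-Nd3 was listed at 0 in every E3.5, E4.5 and female E5.5 cell and in 62 of 63 male E5.5 cells. In the cultures it averaged 9.54 to 69.7 FPKM. Values for mitochondrially encoded genes therefore rest on mt-Nd1, mt-Nd2, mt-Nd4, mt-Nd5, mt-Nd6, mt-Cytb and mt-Co1, and in the cultures also on mt-Nd3.

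As a share of all FPKM from nuclear protein-coding genes, the nuclear members made up a median of 10.6% in female and 10.3% in male 2i cells, 9.35% and 8.34% in serum cells, 8.44% and 8.01% in Epi cells and 9.71% and 7.64% in motor neuron cells. The share was 7.25% in the 7-passage Epi culture, 9.81% at E3.5, 10.9% at E4.5, and 7.43% and 7.00% in female and male cells at E5.5. It was thus higher in 2i than in serum and Epi cultures of both lines, and lowest in the E5.5 epiblast and the 7-passage culture. These are values of groups, with no test.

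The summed FPKM of mitochondrially encoded members, divided by that of nuclear members in the same cell, had medians of 0.318 and 0.279 in female and male 2i cells, 0.253 and 0.344 in serum, 0.297 and 0.249 in Epi, and 0.404 and 0.435 in motor neuron cells. It was 0.231 in the 7-passage culture, 0.655 at E3.5 (0.676 without the cell that stood apart), 0.305 at E4.5, and 0.177 and 0.189 in female and male cells at E5.5. The motor neuron cultures and the ICM had the highest medians and the E5.5 groups the lowest, while the lines went opposite ways between 2i and serum. The titles number the cells in separate runs whose meaning the labels do not give, and the ratio differed between runs of the same culture. It was 0.393 in the lower and 0.256 in the higher run of female 2i cells, 0.475 and 0.320 in male serum, 0.389 and 0.237 in female Epi, 0.306 and 0.198 in male Epi, 0.288 and 0.258 in male 2i, and 0.410 and 0.394 in female and 0.430 and 0.436 in male motor neuron cells. For both Epi cultures, female 2i and male serum, the gap between runs was larger than any difference between those states in either line, and the part of the runs in those differences was not tested. Tables were normalised separately, so levels set across cultures and embryos also carry any difference in processing.

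**Figure D1:**
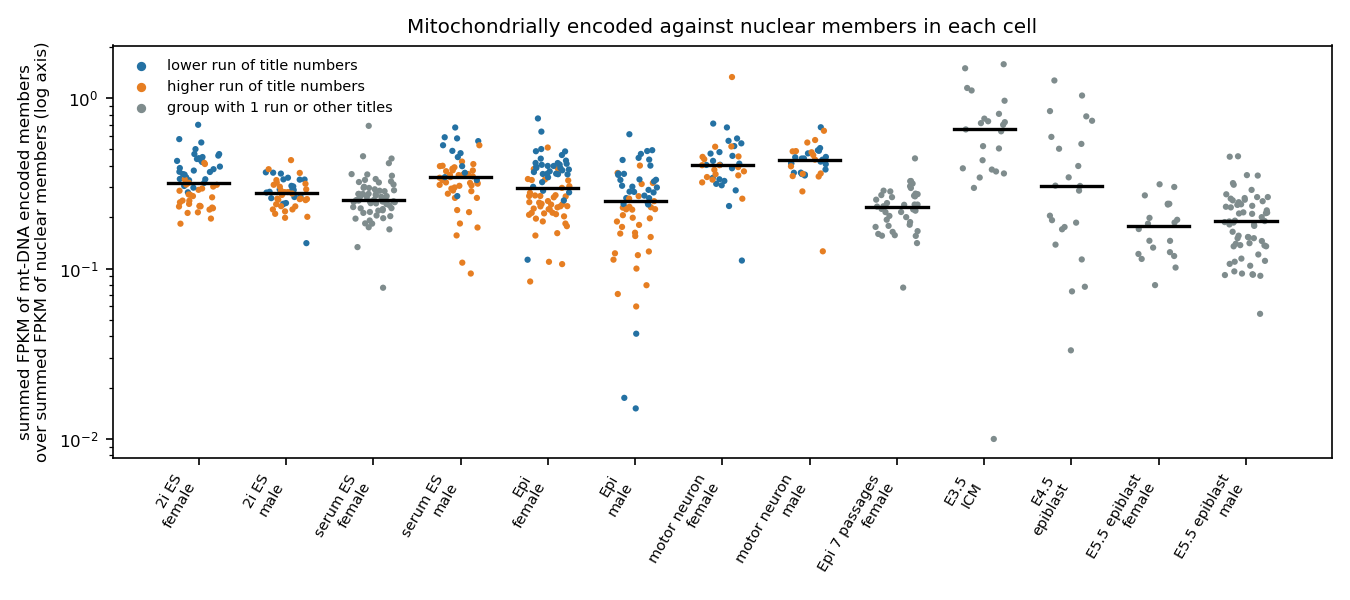
Ratio of summed FPKM of mitochondrially encoded to nuclear members in each of 617 cells, on a log axis, by group. Points are cells, coloured by run of title numbers, bars are medians, and 1 E3.5 cell with a ratio near 0 is drawn at the lower edge of 0.01. The medians of 0.655 at E3.5 and of 0.177 and 0.189 at E5.5 are the extremes.

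Within a group, cells that were high in 1 mitochondrially encoded gene tended to be high in the others, whereas nuclear members were only weakly correlated. Over the 7 mitochondrially encoded genes, the median Spearman rho of gene pairs across cells ran from 0.320 in female serum cells to 0.933 at E4.5. Over the 83 nuclear members above 10 FPKM in every group, it ran from 0.0244 in female serum cells to 0.251 in male E5.5 cells. Pairs of 1 gene of each kind had medians from -0.110 in female Epi cells to 0.252 in female motor neuron cells. Within runs of title numbers the female Epi value was 0.0283 in the lower and 0.0306 in the higher run, so the sign was positive within each run. These are descriptions across cells that share library preparation and, for the mitochondrial genes, transcripts of the same molecule. The part of expression level and measurement noise in the lower values of nuclear pairs was not tested.

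The effect of the culture medium was read from serum against 2i. Of 99 members that averaged at least 1 FPKM over the 8 cultures (91 nuclear, 8 mitochondrially encoded), none was called higher and none lower. A call needed a limma p under 0.05 after Benjamini-Hochberg adjustment together with a change of 1 or more on the log2 scale. The background was equally thin: 0.00645% of 15504 genes were called higher and 0.0129% lower. At an unadjusted p under 0.05 there were 22 members and 1549 genes. Of the nuclear members, 61 were lower and 13 higher in serum in both lines, and their median log2 change was -0.25 (-0.18 in the female and -0.28 in the male line), against 0.00 over all genes tested. Of all 15504 genes, 5245 were lower and 5312 higher in both lines. By complex the medians were -0.25 for I, -0.35 for II, -0.37 for III, -0.19 for IV, -0.26 for V and -0.02 for the assembly factors.

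Cox6b1, a complex IV subunit that faces the intermembrane space, had the smallest p among members. Its level was 2175 ± 244.7 (SD over cells) and 2415 ± 342 FPKM in female and male 2i cells, and 1055 ± 322 and 1052 ± 251.1 FPKM in serum cells. Both 2i cultures thus stood at about the same level, and well above both serum cultures. The log2 change of -1.12 (SE 0.15) had an adjusted p of 0.078 (limma), which was 0.023 with culture values averaged on the log2 scale, 0.020 with the median over cells and 0.026 with the 7-passage culture in place of the first female Epi culture. In the other groups it averaged 1158 and 1452 FPKM (Epi), 1479 (7 passages), 2862 and 2718 (motor neuron), 975 (E3.5), 1393 (E4.5), and 1705 and 1354 (E5.5).

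Among the other complex IV genes, the muscle isoform Cox7a1 was at 140.8 and 267.8 FPKM in 2i and 61.03 and 88.1 in serum (log2 change -1.39, adjusted p 0.55, limma). Its lines differed by 0.92 in 2i and 0.52 in serum (log2, lower in the female line). Cox6a1, the general counterpart of the muscle form Cox6a2, was at 1422 and 1760 FPKM in 2i and 1080 and 925 in serum (-0.66, adjusted p 0.37). Cox5a was at 1511 and 1475 FPKM in 2i and 977 and 967 in serum (-0.62, adjusted p 0.16), with the lines nearly alike.

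In complex V, 2 of the 3 genes for the same membrane-ring subunit c were lower in serum in both lines. Atp5g1 went from 122.1 and 115.7 to 79.6 and 68.2 FPKM (log2 change -0.68, adjusted p 0.27, limma), and Atp5g3 from 792 and 709 to 475 and 461 FPKM (-0.68, adjusted p 0.25). The third, Atp5g2, was at 3.45 to 5.44 FPKM in these 4 cultures, far below the levels of the other genes for subunit c. Atp5s, a coupling factor of the synthase, ran the other way, from 6.36 and 6.88 to 12.0 and 12.7 FPKM (0.81, adjusted p 0.40).

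In complex III, Uqcrb was at 362 and 398 FPKM in 2i and 247.6 and 238.5 in serum (log2 change -0.64, adjusted p 0.26, limma), and Uqcr10 at 1952 and 1993 against 1547 and 1223 (-0.52, adjusted p 0.57). All 4 genes of complex II were lower in serum in both lines. Their log2 changes were -0.32 (Sdha), -0.33 (Sdhb), -0.47 (Sdhc) and -0.37 (Sdhd), with adjusted p of 0.68 to 0.86. In complex I, Ndufb4 went from 102.9 and 96.9 to 45.5 and 59.7 FPKM (-0.93, adjusted p 0.27), and Ndufv2, of the module that oxidises NADH, from 445 and 464 to 266.8 and 292 (-0.70, adjusted p 0.18). The assembly factors split: Ndufaf5 was lower (-0.58, adjusted p 0.55) and Ndufaf7 higher in serum (0.65, adjusted p 0.72).

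Of the 8 mitochondrially encoded members tested, 3 were lower in serum in both lines and 5 moved opposite ways between the lines. The 3 lower in both were mt-Nd1, mt-Cytb and mt-Nd3. mt-Nd1 was at 7953 and 6350 FPKM in 2i and 4179 and 5534 in serum (log2 change -0.56, adjusted p 0.43, limma). mt-Cytb, the only such gene of complex III, was at 5306 and 4409 against 3922 and 4147 FPKM (-0.26, adjusted p 0.70). mt-Nd3 was at 69.7 and 46.2 against 15.2 and 33.5 FPKM (-1.29, adjusted p 0.35). In each, the female line differed more than the male line. Over the 8 tested, the median change was -0.39 in the female and 0.06 in the male line.

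**Figure D2:**
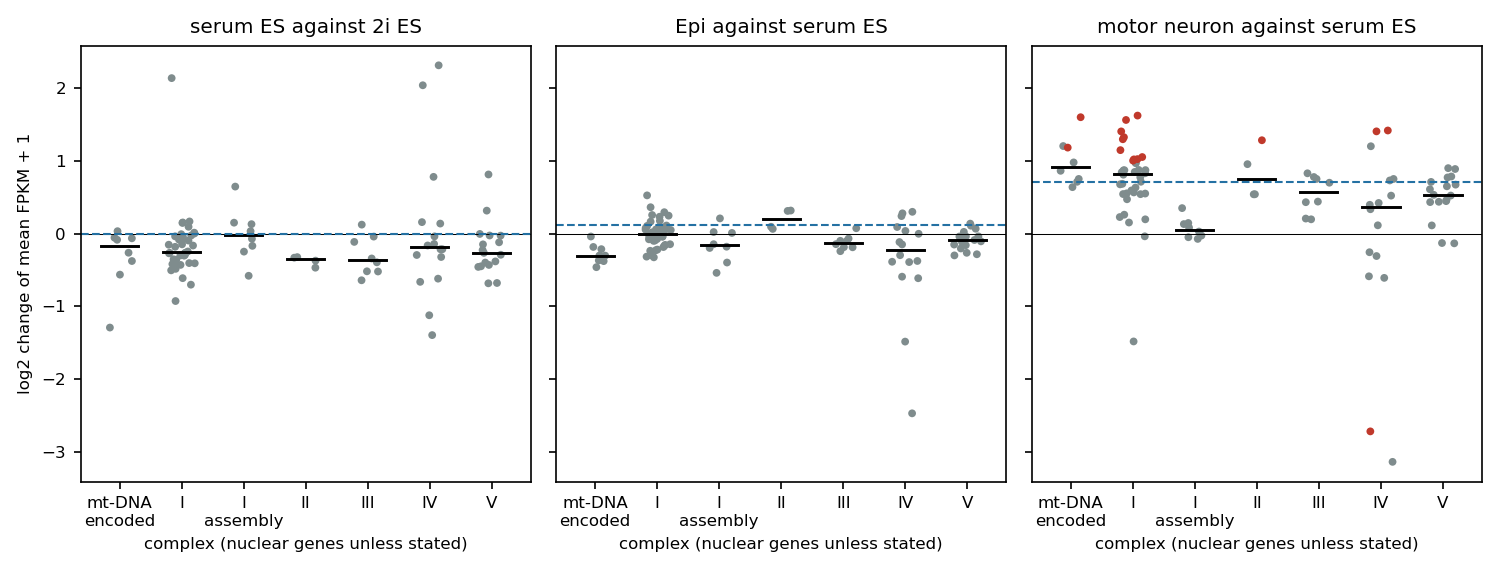
Log2 change of culture means (FPKM + 1) for each tested member, by complex, in the 3 comparisons. Points are genes, red where called, black bars are class medians and the dashed line is the median of all 15504 genes. Calls appear in the motor neuron comparison alone, where the median of all genes is itself 0.71.

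The Epi state was read from Epi against serum cultures. No member was called in either direction by limma, against 0.0322% of genes called higher and 0.00645% lower, and 2 members had an unadjusted p under 0.05 (1000 of all genes). The nuclear members had a median log2 change of -0.05, against 0.12 over all genes, with 19 higher and 30 lower in both lines. Of all 15504 genes, 6023 were higher and 2712 lower in both lines. Complex II stood at 0.20, complex I at -0.00, III at -0.12, IV at -0.22 and V at -0.09.

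The clearest single value was that of Cox8c, the testis isoform of a small complex IV subunit. It averaged 0.757 and 0.458 FPKM in 2i, 5.88 and 5.27 in serum, and 0.410 in female Epi, and was listed at 0 in all male Epi and all motor neuron cells. In serum it was at 1 FPKM or more in 19.1% of female and 23.1% of male cells, so a minority of cells carried the mean. Its log2 change was 2.04 from 2i to serum (adjusted p 0.11) and -2.47 from serum to Epi (adjusted p 0.24, limma). The latter was called lower without the female Epi culture and with the 7-passage culture in its place. Cox7b2, a relative of Cox7b, was at 2.44, 23.8 and 23.01 FPKM in 2i, serum and Epi cells of the female line, and at 1.91, 8.94 and 0.314 in the male line. Its 2i and serum values were not separated by limma either (log2 change 2.31, adjusted p 0.70).

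Other named complex IV genes were lower in Epi in both lines without a call. Cox5a went from 977 and 967 to 785 and 715 FPKM (log2 change -0.38, adjusted p 0.73, limma), and Cox6c from 1145 and 1049 to 954 and 732 (-0.39, adjusted p 0.73). Cox7c went from 95.81 and 111.1 to 81.4 and 55.4 (-0.61, adjusted p 0.73). Higher in both lines were Cox6b1 (0.30, adjusted p 0.73), Ndufa12 (0.36), Sdha (0.32) and Sdhc (0.31). Uqcr10 (-0.24) and Atp5l (-0.30) were lower in both. The adjusted p of these was 0.73 to 0.82.

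The lines disagreed on the mitochondrially encoded genes. mt-Co1 was at 1993 and 2789 FPKM in serum and 2261 and 1297 in Epi, a change of 0.18 in the female and -1.10 in the male line (mean -0.46, adjusted p 0.74, limma). Over the 8 tested, the median was 0.04 in the female and -0.68 in the male line. The Epi cultures also differed in their markers. The summed FPKM of 7 pluripotency markers had a median of 1301 in female (range 15.1 to 2771) and 222 in male Epi cells (15.4 to 1185), with all 7 and 2 of 7 averaging at least 1 FPKM. That of 5 primed epiblast markers was 129 in female and 548 in male cells. Their part in the difference between lines was not tested.

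The 7-passage female culture, from its own table, is set beside these without a test. Its nuclear members had a median log2 ratio of -0.02 to the first female Epi culture and 0.05 to the male one. All 8 mitochondrially encoded members were lower than in the first female culture (median -0.67), whereas 3 of 8 were higher than in male Epi (median -0.13). Markers moved as well: median summed FPKM was 462 against 1301 in the first female culture for pluripotency, 414 against 129 for primed epiblast and 164 against 11.0 for 6 trophectoderm markers, and their part in the difference was not tested. Furthest below the first female culture were Cox7b2 (0.857 against 23.01 FPKM) and Cox6b2 (143.05 ± 127.98 against 370 ± 458). Furthest above were Ndufaf8 (215.7 ± 110 against 134.4 ± 98.7) and Ndufa12 (188.6 ± 64.05 against 118.97 ± 36.2).

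Differentiation was read from motor neuron against serum cultures. On FPKM as deposited, 15 members rose and 1 fell by limma. Of all genes, 30.1% were called higher and 2.70% lower, so 15 of 99 members is below the background share. The nuclear members had a median log2 change of 0.57 and the mitochondrially encoded ones 0.92, against 0.71 over all genes. By complex the nuclear medians were 0.82 for I, 0.75 for II, 0.57 for III, 0.37 for IV, 0.53 for V and 0.06 for the assembly factors. FPKM sums were higher in the motor neuron cells (group medians 1332430 and 1478620) than in serum cells (862527 and 922930). With cells rescaled to the same summed FPKM, to the same nuclear coding sum, or with upper-quartile scaling, 0 members were called higher and 2 lower (Cox8c and Cox7c). Of all genes in the motor neuron against serum comparison, 2166 (14.2%), 2448 (14.4%) and 2054 (13.3%) were still called higher on these scales, and 971 (6.36%), 1045 (6.13%) and 1597 (10.4%) lower. Nuclear members then had medians of -0.04, -0.05 and -0.30 and mitochondrially encoded ones 0.29, 0.27 and 0.06, beside 0.14, 0.12 and -0.01 over all genes. The direction for nuclear members therefore depends on the scale, and the mitochondrially encoded median was above that of all genes on each of the 4 scales. Without the serum male culture 6 members were called higher, beside 11.5% of all genes, and with the lower run of title numbers 9, beside 26.4%. With the line as a replicate block 16 were called higher and 2 lower, the second being Cox7b2, beside 31.6% and 3.25% of all genes.

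Most of the members called on FPKM as deposited were accessory subunits of complex I, the largest class. Of its 38 nuclear genes 10 were called higher, which did not exceed the 30.1% of all genes. Ndufa8, an accessory subunit that faces the intermembrane space, was at 171 ± 56.6 and 140 ± 37.6 FPKM in serum and 455.3 ± 224.8 and 501.3 ± 209 in motor neuron cultures (log2 change 1.62, SE 0.19, adjusted p 0.0032, limma). In the 2i and Epi cultures it stood between 151.03 and 172 FPKM, at the serum level. Ndufa12 rose from 111.6 and 105.2 to 401.4 and 257.5 FPKM (1.56, adjusted p 0.0084), Ndufa13 from 169 and 140 to 451 and 369 (1.403, adjusted p 0.0046), and Ndufb8 from 753 and 611 to 1713 and 1686 (1.32, adjusted p 0.0031). Ndufb6, Ndufb7, Ndufs5, Ndufs4, Ndufa3 and Ndufb2 rose by 1.00 to 1.30. No nuclear complex I member other than Ndufa4l2 was lower by more than 0.05.

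In complex IV, Cox6a1 rose from 1080 and 925 to 2488 and 2861 FPKM (log2 change 1.42, SE 0.22, adjusted p 0.0063, limma) and Cox6b1 by 1.404 (SE 0.15, adjusted p 0.0028). On the nuclear coding scale the same changes were 0.97 for Ndufa8 (adjusted p 0.016) and 0.75 for Cox6b1 (adjusted p 0.033), positive but under the size a call needs. Cox4i1, the largest nuclear subunit, was at 2686 and 2274 FPKM in serum and 4355 and 3862 in motor neuron cultures (0.73, adjusted p 0.074). Cox8c fell to 0 in all motor neuron cells (fitted change -2.72, adjusted p 0.0038, with no true bound since the values are 0). Cox7b2 was at 23.8 and 8.94 FPKM in serum and at 2.199 and 0 in motor neuron cultures (adjusted p 0.11). Cox7c was at 95.81 and 111.1 against 75.97 and 59.7 FPKM (-0.61, adjusted p 0.12).

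In complex II, Sdhb, the iron-sulfur subunit, rose from 205 ± 69.2 and 218 ± 68.2 to 455.7 ± 236.4 and 584 ± 310 FPKM (log2 change 1.28, SE 0.18, adjusted p 0.0047, limma). Its partners were not called: Sdha 0.54 (adjusted p 0.18), Sdhc 0.95 (0.062) and Sdhd 0.54 (0.12). Sdha and Sdhd turned to the other side of 0 on each of the other scales. In complexes III and V no nuclear member was called. The largest were Uqcr11 at 0.83 (adjusted p 0.034), Atp5h at 0.90 (0.0073) and Atp5o at 0.89 (0.0052), all under the size limit. Atp5a1, which encodes the catalytic core's alpha subunit, was at 989 and 1210 FPKM in serum and 862 and 1160 in motor neuron cultures (-0.13, adjusted p 0.65).

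Among mitochondrially encoded genes, mt-Cytb rose from 3922 and 4147 to 13593 and 10972 FPKM (log2 change 1.598, SE 0.15, adjusted p 0.0023, limma), and it was 1.43 (adjusted p 0.0021) without the cell of few genes. It was not called with the lower run of title numbers (0.99, adjusted p 0.030). mt-Nd4 rose from 941 and 876 to 2511 and 1689 FPKM (1.18, adjusted p 0.013). mt-Nd1 (0.86), mt-Nd2 (1.20), mt-Nd5 (0.75), mt-Nd6 (0.98), mt-Co1 (0.71) and mt-Nd3 (0.64) were higher in both lines without a call, with adjusted p of 0.024 to 0.27. The values of genes other than mt-Cytb, and the median of 0.92 over the 8 tested, include the cell of few genes. By line that median was 1.24 (female) and 0.65 (male), beside 0.66 and 0.71 over all genes. It thus stood above all genes in the female line alone.

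**Figure D3:**
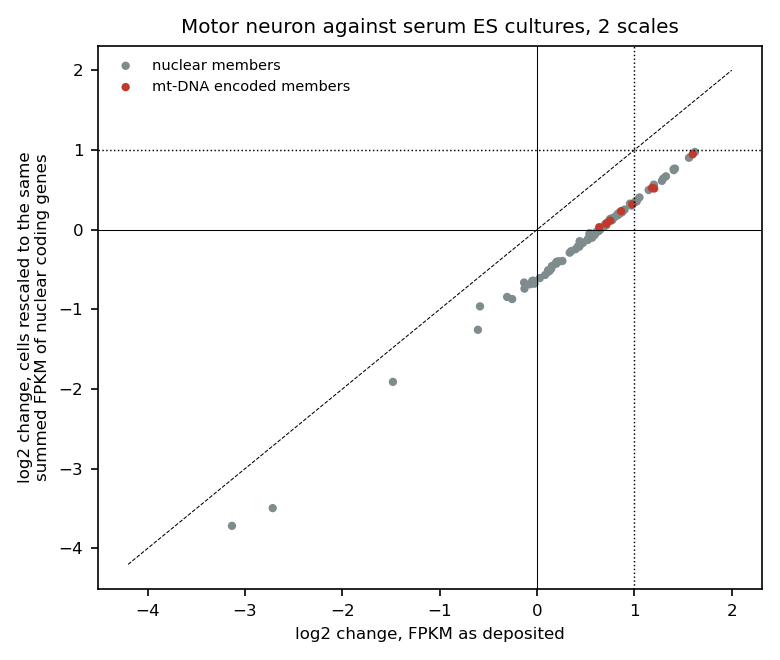
Log2 change of each tested member in motor neuron against serum cultures with FPKM as deposited (x axis) and with cells rescaled to the same summed FPKM of nuclear coding genes (y axis). The solid lines mark 0, the dotted lines the size limit of 1 and the dashed line equality; no point lies above 1 on the rescaled axis, where the nuclear median is -0.05.

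The motor neuron cultures were mixtures. The mean log2(FPKM + 1) of 12 neuron markers left a gap between 4.79 and 6.69, and 7 female and 16 male cells lay above a limit of 6 set after this was seen. Of the rest, 13 female and 17 male cells were at 4 or more for 8 endoderm markers (15 cells lay within 1 of that limit), and 19 female and 2 male cells were high for neither. Pluripotency markers remained in part. Their summed FPKM had a median of 25.2 (0 to 694) in female and 13.4 (0 to 80.2) in male motor neuron cells. Of these 7 markers, 7 and 3 averaged at least 1 FPKM. Their part in the values was not tested. Nuclear members took a median of 8.42% and 7.45% of nuclear coding FPKM in neuron-marker cells of the female and male line, and 9.43% and 7.55% in endoderm-marker cells. The mitochondrially encoded to nuclear ratio was 0.406 and 0.433 in the former and 0.388 and 0.435 in the latter, so neither measure parted these cells in both lines.

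Single members did. Cox7a1 was at 4.75 and 6.23 FPKM in neuron-marker cells and 91.1 and 69.9 in endoderm-marker cells, and Cox6b2 at 57.7 and 73.3 against 215 and 453. Going the other way, Ndufaf5 was at 50.7 and 41.4 against 15.3 and 12.2 FPKM, Ndufaf4 at 110 and 80.05 against 33.6 and 29.3, Ndufv3 at 1310 and 1100 against 477 and 545, and Sdhb at 703.6 and 843 against 371 and 339. Past a log2 difference of 1 in both lines 3 nuclear members of 87 were higher (Ndufaf4, Ndufaf5 and Ndufv3; 3.45%) and 2 lower (Cox6b2 and Cox7a1; 2.30%) in neuron-marker cells, against 23.6% and 11.2% of all 15353 genes. These genes were picked after their values were seen, and the cells of each line are 1 culture, so no test applies.

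The wider pathway was read from fixed lists. In serum against 2i and in Epi against serum, limma called no gene of any list. In motor neuron against serum, 8 of 38 assembly factors outside the members rose and none fell. This and the counts that follow stand beside 30.1% of all genes called higher, and no list exceeded that share. They included Cox20 (log2 change 1.64, adjusted p 0.0043) and Cox19 (1.59, adjusted p 0.0064), both of complex IV, and Sdhaf4 (1.45, adjusted p 0.011) and Sdhaf2 (1.3998, adjusted p 0.0089) of complex II. Of 15 carriers and exchangers tested, 4 rose: Slc25a4, the ADP/ATP carrier, from 221 and 216 to 831 and 1211 FPKM (2.19, adjusted p 0.0027), Etfdh (1.86), Vdac3 (1.39) and the ATP synthase inhibitor Atpif1 (1.00). Of 17 genes of pyruvate dehydrogenase and the citric acid cycle, Ogdh (1.25) and Sucla2 (1.14) rose. Of 17 regulators of mitochondrial DNA expression and biogenesis none was called, and their median was -0.07, below the 0.71 of all genes. These counts share the scale of the comparison above.

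Isoform use was read from levels. The general forms Cox4i1, Cox6a1, Cox6b1, Cox7a2, Cox7b and Cox8a were above 300 FPKM in all 13 groups, and Cox7b had the highest group mean among them, 5768 FPKM in female 2i cells. The muscle form Cox8b never averaged above 0.361 FPKM and Cox6a2 never above 3.35, a value from E4.5 where 26.1% of cells had at least 1 FPKM. The testis form Cox6b2 was different. It averaged 143.05 to 773 FPKM in the 9 culture groups and 22.8, 32.9, 57.6 and 56.4 at E3.5, E4.5 and in female and male E5.5 cells, and 91.4% or more of cells in each culture group had it at 1 FPKM or more. Ndufa4l2, a relative of the complex IV associated Ndufa4, was listed at 0 in all E3.5 and E4.5 cells but was at 1 FPKM or more in 17 of 20 female and 54 of 63 male E5.5 cells, with means of 16.1 and 12.5 FPKM. In cultures its mean was 26.95 FPKM in male serum and 21.4 in male Epi cells, against 0.664 and 3.30 in the female line. Ndufa4 itself was at 314 and 277.8 FPKM at E3.5 and E4.5, and at 1068 FPKM or more elsewhere.

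**Figure D4:**
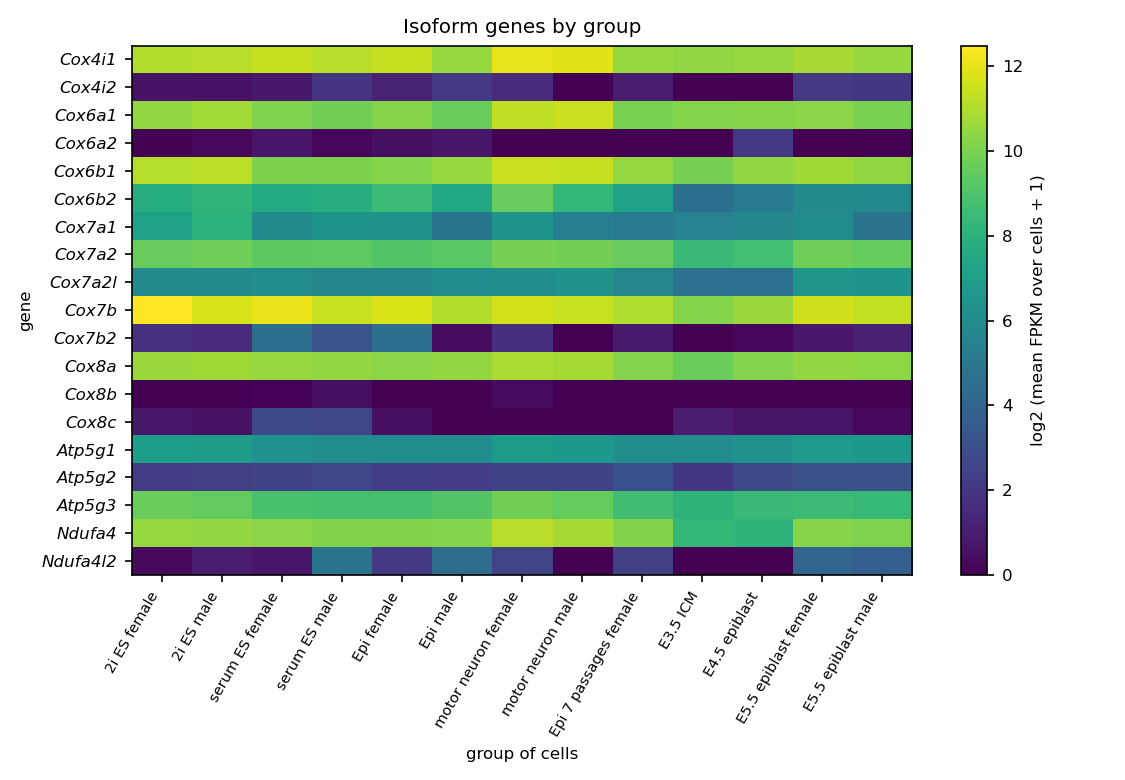
Mean level of 19 isoform genes in the 13 groups, as log2(mean FPKM over cells + 1). Cox6b2 is brighter in the 9 culture groups (143.05 to 773 FPKM) than in the embryo groups (22.8 to 57.6), and Ndufa4l2 is dark at E3.5 and E4.5 and visible at E5.5.

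On the X chromosome lie 3 members: Ndufa1 and Ndufb11 of complex I and Cox7b of complex IV. Females start with 2 active copies until X inactivation, so these were read by sex, with 1 culture or group per sex and no test. In 2i, Ndufa1 was at 767 ± 178 FPKM in female and 453.5 ± 111.02 in male cells, Ndufb11 at 195 ± 40.3 and 143.6 ± 27.5, and Cox7b at 5768 ± 1190 and 3461 ± 400. In serum the values were 900.6 ± 260.8 and 361 ± 105.4 for Ndufa1, 238.7 ± 69.6 and 119.4 ± 38.2 for Ndufb11, and 4541 ± 1128 and 2818 ± 556 for Cox7b. In serum the 3 X-linked genes held the first 3 ranks of 86 nuclear members by female over male ratio, and in 2i ranks 1, 2 and 4. Their median log2 ratio was 0.74 in 2i, 0.99 in serum, 0.58 in Epi, 0.18 in motor neuron and 0.25 in E5.5 cells. Autosomal members were at -0.05, 0.04, 0.04, 0.03 and 0.15, and all X-linked genes at 0.46, 0.39, 0.31, -0.15 and -0.02. All autosomal genes were at -0.05, -0.12, -0.01, -0.20 and 0.02. In Epi cells the ranks of Ndufa1, Ndufb11 and Cox7b were 9, 18 and 7, in motor neuron cells 8, 24 and 25 and at E5.5 8, 29 and 27, so autosomal members with larger ratios stood above them in these states.

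In Epi cells Cox7b was at 3514 ± 1199 FPKM in the first female culture, 2131 ± 633 in the male one and 2069 ± 420 in the female culture of 7 passages. Ndufa1 was at 661 ± 302, 441.7 ± 146.9 and 518 ± 136.02 FPKM, and Ndufb11 at 193 ± 60.1, 147.1 ± 32.7 and 148 ± 41.4. The 7-passage female culture thus stood at the male level for Cox7b and Ndufb11 and between both for Ndufa1, though it comes from a table of its own. In motor neuron cells Cox7b had a female over male log2 ratio of 0.41 with the lower run of title numbers and -0.12 with the higher run, so its order by sex was not stable there. At E5.5 the marker lists also differed by sex: the summed FPKM of 8 endoderm markers had a median of 2102 in female and 512 in male cells, and that of 5 decidua markers 39.6 and 8.92. Their part in the sex values was not tested.

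**Figure D5:**
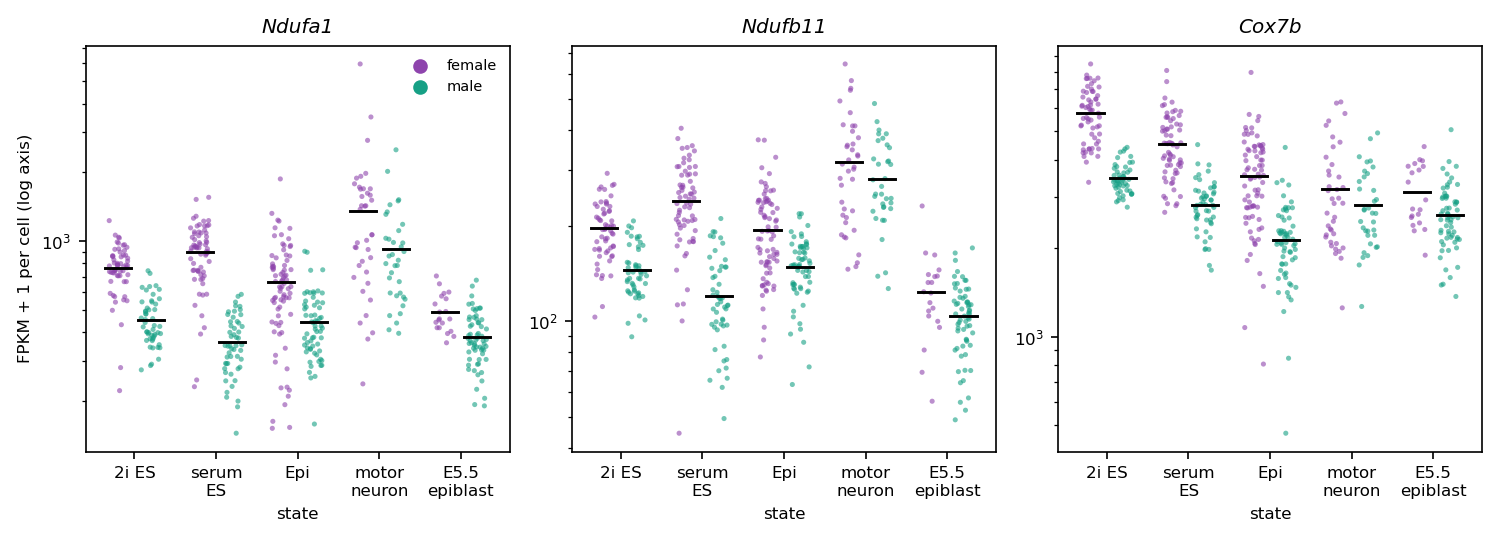
FPKM + 1 of the X-linked members Ndufa1, Ndufb11 and Cox7b in each female and male cell, on log axes, by state. Bars are group means; the female means are well above the male ones in 2i and serum ES cells (5768 against 3461 FPKM for Cox7b in 2i) and closer in motor neuron and E5.5 cells.

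Outside the X chromosome, Cox7a1 was among the 3 largest ratios in one direction or the other in every state. It was at 140.8 ± 76.8 FPKM in female and 267.8 ± 106.1 in male 2i cells, 83.8 ± 87.9 and 27.7 ± 30.9 in Epi, and 65.4 ± 43.6 and 27.1 ± 24.1 at E5.5. It was thus lower in female than in male 2i cells and higher in female Epi and E5.5 cells, with SDs that overlap. The complex II genes Sdha (219 ± 95.7 and 375 ± 164.7 FPKM) and Sdhc (407.9 ± 231.2 and 689 ± 276.9) were lower in female motor neuron cells. Line and sex are the same factor in the cultures and cannot be told apart.

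From the ICM at E3.5 to the epiblast at E4.5, mitochondrially encoded members were lower and nuclear ones slightly higher. The cell titles differ in form between the stages, since all E3.5 titles carry further numbers that no E4.5 title has. The labels do not explain these numbers, and whatever they stand for cannot be told apart from stage. Markers of another cell type differed between the stages too: the summed FPKM of 6 trophectoderm markers had a median of 183 (range 10.2 to 1898) in the cells labelled ICM and 1243 (6.36 to 3196) in those labelled epiblast, with all 6 averaging at least 1 FPKM in both, and that of 7 pluripotency markers 609.5 and 403. Their part in the values below was not tested. All 7 with values had a log2 ratio below 0 (median -0.51, and -0.57 without the cell that stood apart), led by mt-Nd2 (980 to 518 FPKM), mt-Cytb (5138 to 2984) and mt-Nd1 (7162 to 4259). Of 88 nuclear members 55 were higher, beside 5388 of 11893 genes. The median of these members was 0.15 (0.13 without that cell), against -0.08 over all genes (-0.04 without it). Complex IV stood at 0.37 with 13 of 14 genes higher (0.36 and 12 of 14 without that cell), complex V at 0.19, I at 0.16, III at -0.04, II at -0.25 and the assembly factors at -0.33. Past a log2 ratio of 1 there were 2 of 95 members higher and 2 lower, against 11.6% and 13.4% of genes. Without that cell there were 2 and 1, against 12.0% and 8.16% of genes. The 2 higher were Atp5l (10.6 ± 4.75 to 25.5 ± 13.9 FPKM), which shares sequence with 2 annotated pseudogenes, and Cox6a2, named after its values were seen and listed at 0 in all E3.5 cells. Next came the X-linked Ndufa1 (129.7 ± 52.6 to 253.98 ± 140.3 FPKM) and Uqcrq of complex III (644 ± 231.2 to 1250 ± 549). The 2 lower were Ndufaf1 (29.2 ± 30.1 to 12.9 ± 10.8 FPKM) and Ndufa12 (256.98 ± 912 to 76.1 ± 29.3). The value of Ndufa12 came from the single cell that stood apart, since without it the ICM mean was 66.9 FPKM and the log2 ratio turned to 0.18.

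The ratio of mitochondrially encoded to nuclear members varied widely within a stage. By the leading number in the cells' titles, which the labels do not explain, E3.5 medians were 0.432, 0.723, 0.627 and 0.655 over 4 numbers of 4 to 7 cells. E4.5 medians ran from 0.157 to 0.886 over 7 numbers of 2 to 7 cells. The spread at E4.5 thus covered the E3.5 medians, and with unexplained numbers no test between the stages was made.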

How the data were processed

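Single-cell FPKM values, deposited by the authors for each gene, came in 4 tables normalised separately. STAR 2.4.1, Cufflinks, Cuffnorm 2.2.1 and mm10 are named per the submitters' processing notes; the annotation, cell filters and the fragments that set the depth scale were not given in the sources used here. All value columns mapped to samples, and 42548 of 43628 gene IDs matched GENCODE vM21. In 356 blastocyst values a low line in the exponent was read as a minus sign.

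Cells were averaged (mean FPKM) into 8 cultures, which entered 1 limma fit (version 3.58.1, R 4.3.3, trend) on log2(mean FPKM + 1), over 15504 genes of mean 1 FPKM or more, with 4 residual degrees of freedom; log2 changes understate low genes. The female and male culture served as replicates of a state, so p-values measure the spread between 2 lines. The same lines recur in each state, per the labels' protocols, and this pairs the samples; the difference between the lines had a Pearson r of 0.061 to 0.163 between pairs of states. The fit was also run on simulated data with independent noise, no shift of scale between cultures and no effect of line. That run therefore has no bearing on the dependence of calls on scale. Sexes, embryo stages, E5.5 and the 7-passage culture had 1 sample per arm and no test.

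Named genes were the mitochondrially encoded, isoform, Sdh and X-linked members, and per comparison and class the 2 largest rises and falls above 10 FPKM seen in both lines, with up to 10 called per direction; untested comparisons name the 3 largest ratios each way. Ndufv2, Cox6a2, Cox8b, Ndufaf4, Ndufv3, further called members and genes of the pathway lists were named outside the rule after values were seen. Members and lists were chosen with earlier results of these data known. Alternatives concerned pseudocount, filters, scaling, cell choice, runs of titles, the block and omitted cultures.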

Additional observations from a re-analysis of the deposited data

Results flagged for a closer look

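In 3 genes the female and male lines moved opposite ways by at least 0.5 (log2), each line being 1 culture, so the difference was not tested. mt-Nd3 changed by 0.58 in the female and -0.94 in the male line from serum to Epi. Ndufa4l2 changed by 1.83 and -4.79 from serum to motor neuron cultures, and Cox4i2, the lung form of the Cox4 subunit, by 0.72 and -1.89. Ndufa4l2 was at 0.664 and 26.95 FPKM in female and male serum cells and at 4.92 and 0.00873 in motor neuron cells. Cox4i2 was at 0.823 and 2.71 FPKM in serum and at 2.00 and 0 in motor neuron cells, close to the limit of detection.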

How the results depend on the processing

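Members called in motor neuron against serum cultures depended on the scale: 0 were called higher and 2 lower with cells rescaled to the same sum, to the same nuclear coding sum or by upper quartile. The count higher was 9 and the count lower 0 with the lower run of title numbers. The count lower was also 0 with a 5 FPKM filter and with the median over cells (chosen after seeing the data), and 2 with the 7-passage culture or the line as a replicate block, which changed no call in the other comparisons. With 1 culture left out, so that the lone sample is assumed to vary like the others, the count higher ran from 6 (without serum male) to 17 and the count lower from 1 to 2. In serum against 2i, 1 member, Cox6b1, was called lower with the mean of log2 values, the median over cells or the 7-passage culture. In Epi against serum, 2 were called lower with the 7-passage culture, and the count lower also depended on the culture left out. For settings without a share of all genes printed above, counts of members are not read against a background. The ratio of male serum cells was 0.475 in the lower run, and the X-linked female over male median of motor neuron cells was 0.41 there.

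Changes that turned sign were all of genes without a call. With upper-quartile scaling these were mt-Nd5 (-0.11), mt-Co1 (-0.15), mt-Nd3 (-0.19), Uqcr11 (-0.033), Cox4i1 (-0.13), Sdha (-0.32) and Sdhd (-0.32). Sdha and Sdhd were at -0.038 and -0.00883 with the same sum and -0.052 and -0.045 with the same nuclear coding sum. Cox6b2 was at -0.49 with the mean of log2 values and -0.24 with the median, and Ndufa4l2 at 1.16 with the lower run and 0.00 with the median. Cox4i2 was at 0.0057 with the lower run. In Epi against serum, mt-Nd3 was at 0.33 and Sdhc at -0.051 with the lower run. Leaving out 1 culture gave mt-Nd3 -0.73 to 0.36 (Epi), and in motor neuron cultures Ndufa4l2 -3.515 to 0.55, Atp5a1 -0.34 to 0.084 and Cox4i2 -1.38 to 0.21. Of 349 values of called members under all alternatives, 91 lost the call and 0 turned sign. The cause was not tested. The log2 ratio of mitochondrially encoded to nuclear members per gene had group medians of 0.34 to 2.23 from sums and of -2.61 to -1.06 from means of log2 values. Both took all 13 mitochondrially encoded genes, including those listed at 0 that may be failed estimates. The part of these zeros in the turn of sign was not tested, so the negative values are not read as lower levels. Depth is unknown, which limits values near 1 FPKM.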
